A study of Mus musculus with 10 samples.

Results

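The question followed here is whether the distal colorectum of mice without Pdgfc responded to irradiation differently from that of mice with it. For each gene the irradiated minus unirradiated difference in Pdgfc-/- mice (knockout) was compared with the same difference in Pdgfc+/+ mice (wild type), and the gap between them, knockout minus wild type, is called the difference of differences. All 10 of the 10 arrays of the series enter this value, and 12568 of 18193 genes were bright enough to be tested. The mice were C57BL/6J. Each genotype had 2 unirradiated and 3 irradiated arrays, and the labels call the replicates biological. The irradiated mice had a local γ-ray dose of 25 Gy, given at 2.14 Gy/min, and colorectum from about 1 cm above the anus was taken 8 weeks later, with the controls taken at the same stage. The treatment label of the unirradiated mice reads none. How the Pdgfc allele was made, and the age and sex of the mice, are not given in the sources used here. Levels are log2 signals of the MAS5 algorithm, 1 log2 unit is a doubling, and a difference of differences is also in log2 units, given with its standard error over the 10 arrays. Whole tissue was measured, so fewer cells of a type and less RNA per cell cannot be told apart.

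PDGF-C is a secreted growth factor that is activated by proteolysis and signals through PDGF receptor alpha on fibroblasts and other mesenchymal cells. Interferon-γ, released by T and NK cells, acts on its target genes through gamma activated sites and interferon-stimulated response elements in promoters. Its targets include CIITA and NLRC5, the regulators that switch on the genes of MHC class II and class I antigen presentation, the GTPases that attack vacuoles of intracellular microbes, and the chemokine CXCL9. In the colon, the epithelium as well as leukocytes can display MHC class II.

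Several arrays stood apart in ways that run with the groups. By Xist and Y-linked transcripts, all 3 irradiated wild-type arrays and replicate 1 of irradiated knockout carried a female pattern, and the others a male one, so irradiation and sex pattern coincide in wild type. The log2 difference between the 3′ and 5′ Gapdh control probe sets was -0.54 to -0.35 on irradiated and -0.32 to 0.02 on unirradiated arrays. Array medians ranged from 6.64 to 7.18. Of the distal colon identity markers tested, 18 of 19 lay above the array median on all 10 arrays. Their median irradiated minus unirradiated difference was -0.83 in wild type and -0.71 in knockout. For 16 stratified squamous keratins, 3 of them above the array median on all arrays, that median was 5.42 in wild type and 5.53 in knockout. The part of tissue composition in the values below was not tested. Pdgfc itself had levels of 7.01 and 7.50 in unirradiated wild type, 6.42 and 5.62 in unirradiated knockout, 8.56, 8.75 and 8.67 in irradiated wild type and 7.15, 6.26 and 7.10 in irradiated knockout. In either condition the knockout arrays were all lower than the wild-type ones, though none was at the bottom of the scale. It had a difference of differences of -0.59 ± 0.51 (adjusted p = 0.73), and its probe set is not known here to lie in the deleted part of the gene.

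The difference of differences passed an adjusted p under 0.05 by limma in 26 of 12568 genes (0.207%). Sex pattern coincides with irradiation in wild type, so the value may hold a sex difference as well as a difference in response. In 22 genes (0.175%) the difference of differences was positive, with the largest values those of Plet1 and Hal. In 4 genes (0.0318%), Car3, Ttr, Slc35e3 and Pdcd4, it was negative. At an unadjusted p under 0.05 there were 1311 genes (10.4%), of which 537 (4.27%) were positive and 774 (6.16%) negative. Over all genes tested the median difference of differences was -0.05, the 5th to 95th percentiles ran from -0.98 to 0.94, and the median standard error was 0.33. The irradiation differences of the genotypes, which share no arrays, correlated at r = 0.82 across the 12568 genes and at r = 0.75 across the 9592 genes above the array median on every array, as a description, since genes are not independent replicates. Of 3137 genes that differed by at least 1 log2 unit in either genotype, 2917 (93.0%) differed in the same direction in both.

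**Figure D1:**
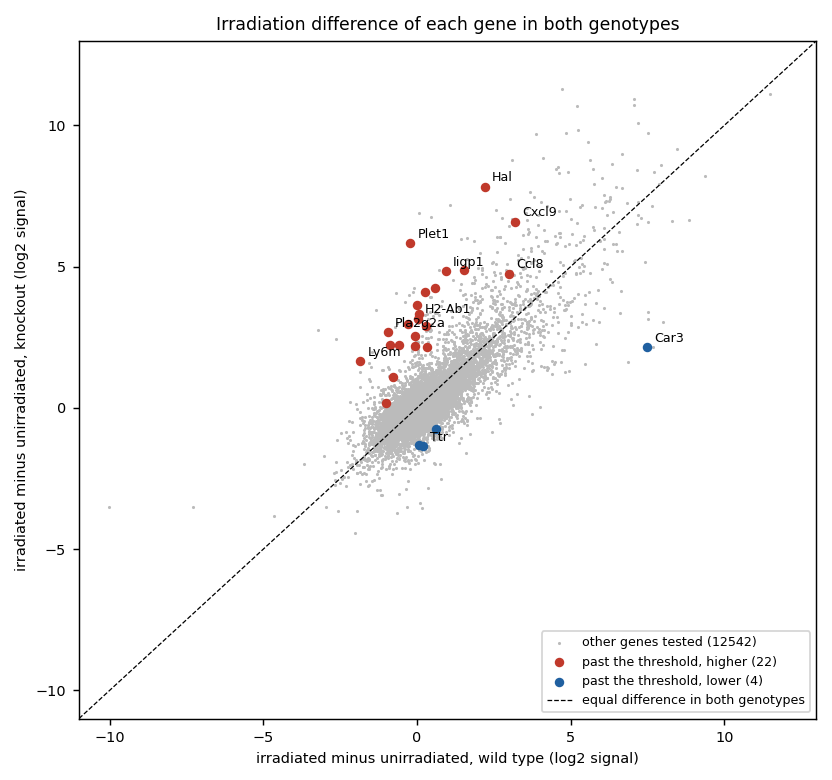
Irradiated minus unirradiated log2 difference per gene, wild type on the horizontal and knockout on the vertical axis, for the 12568 genes tested, with the 26 genes past the threshold coloured and some of them named. Most genes lie along the diagonal (r = 0.82), with the 22 positive genes above it and the 4 negative ones below.

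MHC class II genes gave the most calls of any list. Of 14 members of the MHC class II presentation list tested, 5 passed with a positive value (background 0.175% of genes), namely the chains H2-Aa, H2-Ab1 and H2-Eb1, the peptide-loading chaperone H2-DMa and Cd74, the invariant chain that guides class II molecules to the endosome. The median over the 14 was 0.97 (all genes -0.05). H2-Eb1 had log2 levels of 13.73 and 13.57 in unirradiated wild type, 10.99 and 10.74 in unirradiated knockout, 13.71, 14.25 and 13.90 in irradiated wild type and 13.66, 13.81 and 13.83 in irradiated knockout. Both unirradiated knockout arrays lay below all other 8 arrays, which overlapped. Its irradiated minus unirradiated difference was 0.30 in wild type and 2.90 in knockout, a difference of differences of 2.59 ± 0.24 or 6.04-fold (adjusted p = 0.00406). Cd74 had levels of 14.13 and 13.99 in unirradiated wild type, 11.54 and 10.92 in unirradiated knockout, 13.93, 14.19 and 13.84 in irradiated wild type and 13.48, 14.04 and 13.76 in irradiated knockout. The same layout held, with a difference of 2.60 ± 0.30 (adjusted p = 0.0115). For H2-Ab1 the levels were 13.80 and 13.44 in unirradiated wild type, 10.49 and 10.08 in unirradiated knockout, 13.35, 14.11 and 13.49 in irradiated wild type and 13.24, 13.80 and 13.29 in irradiated knockout. Its difference of 3.13 ± 0.37 (adjusted p = 0.0115) again set both unirradiated knockout arrays apart. H2-DMa differed by 3.25 ± 0.44 and H2-Aa by 2.24 ± 0.34 (adjusted p = 0.0206 and 0.0392), and in each the unirradiated knockout arrays were the lowest. H2-Aa is the one gene past the threshold that the naming rule leaves out, and it was chosen after its values were seen. Ciita, the regulator of these genes, missed the threshold at 2.96 ± 0.47 (adjusted p = 0.0503), with irradiated minus unirradiated differences of 0.44 in wild type and 3.40 in knockout.

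Among tested genes, H2-Ab1, H2-Aa and H2-Eb1 are immediate neighbours, with 0 tested genes between each pair, and 6 lie between H2-DMa and H2-Ab1. Without 1 array, H2-Eb1 stayed past the threshold in all 10 fits. Cd74 was lost without replicate 1 of unirradiated wild type (0.0526), H2-Ab1 without replicate 1 of unirradiated wild type (0.0533) or replicate 2 of unirradiated knockout (0.0578), and H2-DMa without replicate 1 of unirradiated wild type (0.0700), replicate 2 of unirradiated wild type (0.0515), replicate 2 of unirradiated knockout (0.0938) or replicate 3 of irradiated knockout (0.0608), each with its adjusted p in parentheses. H2-Aa passed in 1 of the 10 fits, and its highest adjusted p was 0.177 without replicate 2 of unirradiated knockout. Across the list, the members past the threshold in MHC class II presentation numbered 1 when replicate 1 of unirradiated wild type was left out, 2 without replicate 2 of unirradiated knockout, 3 without replicate 3 of irradiated knockout and 4 or 5 without any other array. The list's median of 0.97 was 0.47 without replicate 1 of irradiated wild type and 0.60 without replicate 2 of unirradiated knockout, the lowest pair of the 10 fits, and at most 1.34.

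Leukocytes that display MHC class II, and T and NK cells, were followed through their marker lists (background past the threshold 0.207% of genes). On the log2 scale of the summed signal, B and plasma cell markers (13 tested, 7 above the array median on all arrays, 0 past the threshold, median 0.50) summed to 15.62 to 15.77 in unirradiated wild type, 14.19 to 14.86 in unirradiated knockout, 16.37 to 16.96 in irradiated wild type and 16.22 to 16.82 in irradiated knockout. Macrophage markers (21 tested, 11 above the array median on all arrays, 0 past the threshold, median 0.28) summed to 13.48 to 13.67 in unirradiated wild type, 12.65 to 13.25 in unirradiated knockout, 15.73 to 16.06 in irradiated wild type and 15.21 to 15.58 in irradiated knockout. For both lists the unirradiated knockout arrays lay below the unirradiated wild-type arrays. Dendritic cell markers (9 tested, 1 above the array median on all arrays, 0 past the threshold, median 0.23) summed to 9.48 to 9.63 in unirradiated wild type, 9.16 to 9.48 in unirradiated knockout, 11.69 to 12.30 in irradiated wild type and 10.53 to 11.70 in irradiated knockout. T and NK cell markers (14 tested, 2 above the array median on all arrays, 0 past the threshold, median 1.08) summed to 10.97 to 11.23 in unirradiated wild type, 10.65 to 11.07 in unirradiated knockout, 12.24 to 13.19 in irradiated wild type and 11.97 to 12.50 in irradiated knockout. The dendritic cell sums of unirradiated knockout lay just below those of unirradiated wild type, and the T and NK cell sums overlapped. Both unirradiated knockout arrays were below the other 8 in 15 of 21 macrophage, 9 of 14 T and NK cell, 8 of 13 B and plasma cell and 2 of 9 dendritic cell markers (8.12% of all genes). The mean level over the T and NK cell markers was 6.71 in unirradiated wild type and 5.41 in unirradiated knockout. Single arrays moved these medians: without replicate 1 of unirradiated knockout the T and NK cell markers had 0.47 and the macrophage markers -0.03, and without replicate 1 of unirradiated wild type the dendritic cell markers had -0.56. No marker is at 0 on this scale, and the part of these cells in the class II result was not tested.

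The promoters of the neighbouring class II genes H2-Aa (chr17:34287824-34288073, minus strand) and H2-Eb1 (chr17:34305617-34305866, plus strand) are shown because both hold the Y box, the CCAAT-type element of class II promoters. The sequences are RefSeq's, build GRCm38.p6, the 250 bases before the annotated start, 5′ to 3′, with the Y box CTGATTGG, searched on both strands, in capitals.
H2-Aa: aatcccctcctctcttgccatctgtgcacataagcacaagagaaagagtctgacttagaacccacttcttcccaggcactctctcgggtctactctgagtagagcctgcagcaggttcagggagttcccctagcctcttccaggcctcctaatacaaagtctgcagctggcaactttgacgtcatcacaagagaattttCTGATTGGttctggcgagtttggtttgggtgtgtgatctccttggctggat
H2-Eb1: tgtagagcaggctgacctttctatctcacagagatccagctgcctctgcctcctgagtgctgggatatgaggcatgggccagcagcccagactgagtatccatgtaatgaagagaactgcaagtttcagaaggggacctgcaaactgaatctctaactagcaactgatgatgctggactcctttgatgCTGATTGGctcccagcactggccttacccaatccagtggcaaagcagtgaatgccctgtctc
The first base of the match lies 51 bases before the start in H2-Aa and 62 in H2-Eb1. The Y box, a motif added after the data were seen, was in 1258 of 32851 promoters of all genes (3.83%), in 3 of 17 promoters of the positive genes (15 of 22 genes had an entry), and in 3 of 11 promoters of the class II list. A match is a description of letters and not a shown binding site.

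Nlrc5, the regulator of MHC class I genes, was the member of the 18-gene MHC class I presentation list to pass (background 0.175% of genes). Its levels were 10.60 and 10.13 in unirradiated wild type, 7.27 and 6.47 in unirradiated knockout, 10.36, 10.67 and 10.27 in irradiated wild type and 10.26, 9.95 and 10.39 in irradiated knockout. Both unirradiated knockout arrays were the lowest of the 10 and the other groups overlapped, so that the difference was 0.07 in wild type and 3.33 in knockout, a difference of differences of 3.26 ± 0.37 (adjusted p = 0.0115). Nlrc5 passed without any 1 array. The list's median was 0.75, beside an all-gene median of -0.05, and 17 of 18 members were positive (45.1% of all genes). The peptide transporter Tap1 (2.68 ± 0.51, adjusted p = 0.11) and the immunoproteasome subunits Psmb8 (2.37 ± 0.42, 0.0827) and Psmb9 (2.42 ± 0.42, 0.0786) missed the threshold, and their values were looked up after seeing the list. The class I light chain B2m had 0.85 ± 0.28 (adjusted p = 0.339).

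The interferon-induced GTPases list holds immunity-related GTPases and guanylate-binding proteins that act on vacuoles holding microbes. Of its 12 members tested, 4 passed the threshold (background 0.175% of genes). All 12 were positive (45.1% of all genes), with a median of 2.74. In 11 of the 12 both unirradiated knockout arrays were below all others, against 8.12% of all genes tested. Iigp1 had levels of 12.36 and 11.42 in unirradiated wild type, 8.36 and 7.50 in unirradiated knockout, 12.80, 13.34 and 12.33 in irradiated wild type and 12.69, 12.79 and 12.80 in irradiated knockout. Its difference of differences was 3.90 ± 0.50, 15-fold (adjusted p = 0.0169), from 0.93 in wild type and 4.84 in knockout. Igtp had levels of 12.86 and 11.66 in unirradiated wild type, 8.80 and 8.51 in unirradiated knockout, 12.96, 13.37 and 12.22 in irradiated wild type and 12.93, 13.04 and 12.68 in irradiated knockout. The irradiated genotypes overlapped and the unirradiated knockout was lowest, giving 3.64 ± 0.53 (adjusted p = 0.031). Gbp6 differed by 3.36 ± 0.49 (adjusted p = 0.031) and Irgm1 by 1.83 ± 0.29 (adjusted p = 0.0465), with differences in wild type of 1.52 and 0.33 and in knockout of 4.88 and 2.17. Irgm2, at 3.01 ± 0.49, missed it (adjusted p = 0.0574), and was looked up after the list was seen. Members of this family are similar in sequence, so a probe set may see more than one.

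These calls depended on single arrays. Without replicate 1 of unirradiated wild type, replicate 2 of unirradiated knockout or replicate 3 of irradiated knockout, 0 of 12 interferon-induced GTPases passed. The count was 1 without replicate 1 of unirradiated knockout, of irradiated wild type or of irradiated knockout, or without replicate 2 of irradiated knockout. Without replicate 2 of unirradiated wild type it was 9, and without replicate 2 or 3 of irradiated wild type it was 3. Iigp1 was lost without replicate 1 of unirradiated wild type (0.0541), replicate 2 of unirradiated knockout (0.0742) or replicate 3 of irradiated knockout (0.0539). Igtp was lost in 7 of 10 fits, Gbp6 in 7 and Irgm1 in 9, with highest adjusted p of 0.177 without replicate 2 of unirradiated knockout, 0.141 without replicate 1 of unirradiated knockout and 0.183 without replicate 2 of unirradiated knockout. The direction stayed positive in all 10 fits for these 4 genes, which follows in part from their choice on these same arrays. Gbp6 missed the threshold with a pseudocount of 16 at 3.03 (adjusted p = 0.051).

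Promoters of Igtp (chr11:58199306-58199555, plus strand), Irgm1 (chr11:48871421-48871670, minus strand) and Rsad2 (chr12:26456453-26456702, minus strand), an antiviral gene described next, are shown because they hold the core of the interferon-stimulated response element, a pair of TTTC with any 2 bases between them, on either strand. Capitals mark that core and, in Igtp, also the gamma activated site TTCNNNGAA. Each run is again 250 bases before the start from RefSeq in GRCm38.p6, 5′ to 3′ on the gene's strand.
Igtp: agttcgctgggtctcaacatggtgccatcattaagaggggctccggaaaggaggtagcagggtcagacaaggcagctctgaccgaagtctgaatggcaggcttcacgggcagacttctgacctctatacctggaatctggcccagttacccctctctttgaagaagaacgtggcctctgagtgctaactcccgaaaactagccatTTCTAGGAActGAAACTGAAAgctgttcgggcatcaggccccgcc
Irgm1: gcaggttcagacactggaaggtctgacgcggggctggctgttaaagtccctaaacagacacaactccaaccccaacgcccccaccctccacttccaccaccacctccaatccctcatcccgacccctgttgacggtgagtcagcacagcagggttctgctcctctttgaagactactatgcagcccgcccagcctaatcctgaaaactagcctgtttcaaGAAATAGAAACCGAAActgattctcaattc
Rsad2: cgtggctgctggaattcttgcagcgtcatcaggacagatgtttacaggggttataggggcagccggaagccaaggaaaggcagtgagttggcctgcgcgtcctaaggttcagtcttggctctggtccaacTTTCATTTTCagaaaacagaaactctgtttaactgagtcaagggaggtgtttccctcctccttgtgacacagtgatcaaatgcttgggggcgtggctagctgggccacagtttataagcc
The core was in 978 of 32851 promoters (2.98%). It was in 4 of 17 promoters of positive genes (Igtp, Irgm1, Rsad2 and Tnfrsf1b) and in 7 of 9 promoters of the GTPase list, for which 8 of 12 genes had an entry. The gamma activated site was in 7.02% of all promoters and in 3 of 17 of the positive genes, and the kappa B pattern, GGG and CC with any 5 bases between, in 45.8% of all and 8 of 17. These shares describe letters in this window only.

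Of 33 antiviral interferon-stimulated genes tested, 2 passed, Ifit2 and Rsad2 (background 0.175% of genes), and all 33 were positive (45.1% of all genes), with a median of 0.72. That median was 0.40 without replicate 1 and 1.35 without replicate 2 of unirradiated wild type. Ifit2, which binds foreign RNA, had levels of 11.67 and 10.42 in unirradiated wild type, 7.52 and 7.06 in unirradiated knockout, 10.90, 11.37 and 10.88 in irradiated wild type and 11.04, 10.35 and 11.45 in irradiated knockout. The unirradiated knockout arrays were below all others, with a difference of differences of 3.66 ± 0.56 (adjusted p = 0.0392). Rsad2, the enzyme viperin, which makes a chain-ending nucleotide against viruses, had levels of 11.27 and 10.45 in unirradiated wild type, 8.18 and 8.20 in unirradiated knockout, 10.05, 10.88 and 9.88 in irradiated wild type and 10.41, 10.35 and 10.48 in irradiated knockout. Its difference of differences was 2.80 ± 0.43 (adjusted p = 0.0392), from -0.59 in wild type and 2.22 in knockout. Ifit2 and Rsad2 were each lost in 8 of 10 fits that left out 1 array, at most at 0.182 without replicate 2 of unirradiated knockout and 0.177 without replicate 2 of unirradiated knockout. Leaving out replicate 2 of unirradiated wild type gave 6 members past the threshold, leaving out replicate 2 of either irradiated group gave 1, and leaving out any of the other 7 arrays gave 0. The interferon signalling components list had 0 of 20 past the threshold, with a median of 0.03 (-0.01 with quantile normalization), and its smallest p belonged to the signalling inhibitor Socs3 (2.83 ± 0.61, adjusted p = 0.157).

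Chemokines gave 1 call in each list (background 0.175% of genes). Cxcl9, which draws CXCR3-bearing T cells and is a classical interferon-γ target, had levels of 7.03 and 7.69 in unirradiated wild type, 2.96 and 3.48 in unirradiated knockout, 10.43, 10.80 and 10.43 in irradiated wild type and 9.86, 9.51 and 10.09 in irradiated knockout. Every group was separate from the next, with the unirradiated knockout lowest and the irradiated wild type highest. The irradiated minus unirradiated difference was 3.19 in wild type and 6.60 in knockout, and the difference of differences 3.41 ± 0.39 (adjusted p = 0.0115). Ccl8, a monocyte and lymphocyte attractant, had levels of 10.30 and 10.44 in unirradiated wild type, 8.43 and 8.41 in unirradiated knockout, 13.39, 13.35 and 13.38 in irradiated wild type and 13.38, 13.03 and 13.13 in irradiated knockout. Irradiated arrays of both genotypes overlapped far above the unirradiated ones, and among those the knockout was lower, giving 1.76 ± 0.18 (adjusted p = 0.00758). Both genes passed without any 1 array. The unirradiated knockout level of Cxcl9 is dim, and a pseudocount of 16 gave 2.11 (adjusted p = 0.0592) and one of 64 gave 0.95 (adjusted p = 0.331). Of 14 lymphocyte-attracting chemokines the median was 0.45, with the Cxcl9 relative Cxcl10 at 2.78 ± 0.79 (adjusted p = 0.286), and of 16 myeloid-attracting chemokines 0.20. The median of lymphocyte-attracting chemokines was 0.23 without replicate 1 of unirradiated knockout, and that of myeloid-attracting chemokines -0.02 without replicate 1 of irradiated wild type. Tnfrsf1b, a receptor for tumour necrosis factor, had levels of 10.31 and 10.52 in unirradiated wild type, 8.45 and 8.62 in unirradiated knockout, 9.48, 9.61 and 9.79 in irradiated wild type and 9.53, 9.84 and 9.50 in irradiated knockout. Unirradiated wild type was highest and unirradiated knockout lowest, with 1.88 ± 0.23 (adjusted p = 0.0169), and the call was lost without replicate 1 of unirradiated knockout (0.0834) or replicate 2 of unirradiated knockout (0.0578), in each case with the adjusted p in parentheses.

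**Figure D2:**
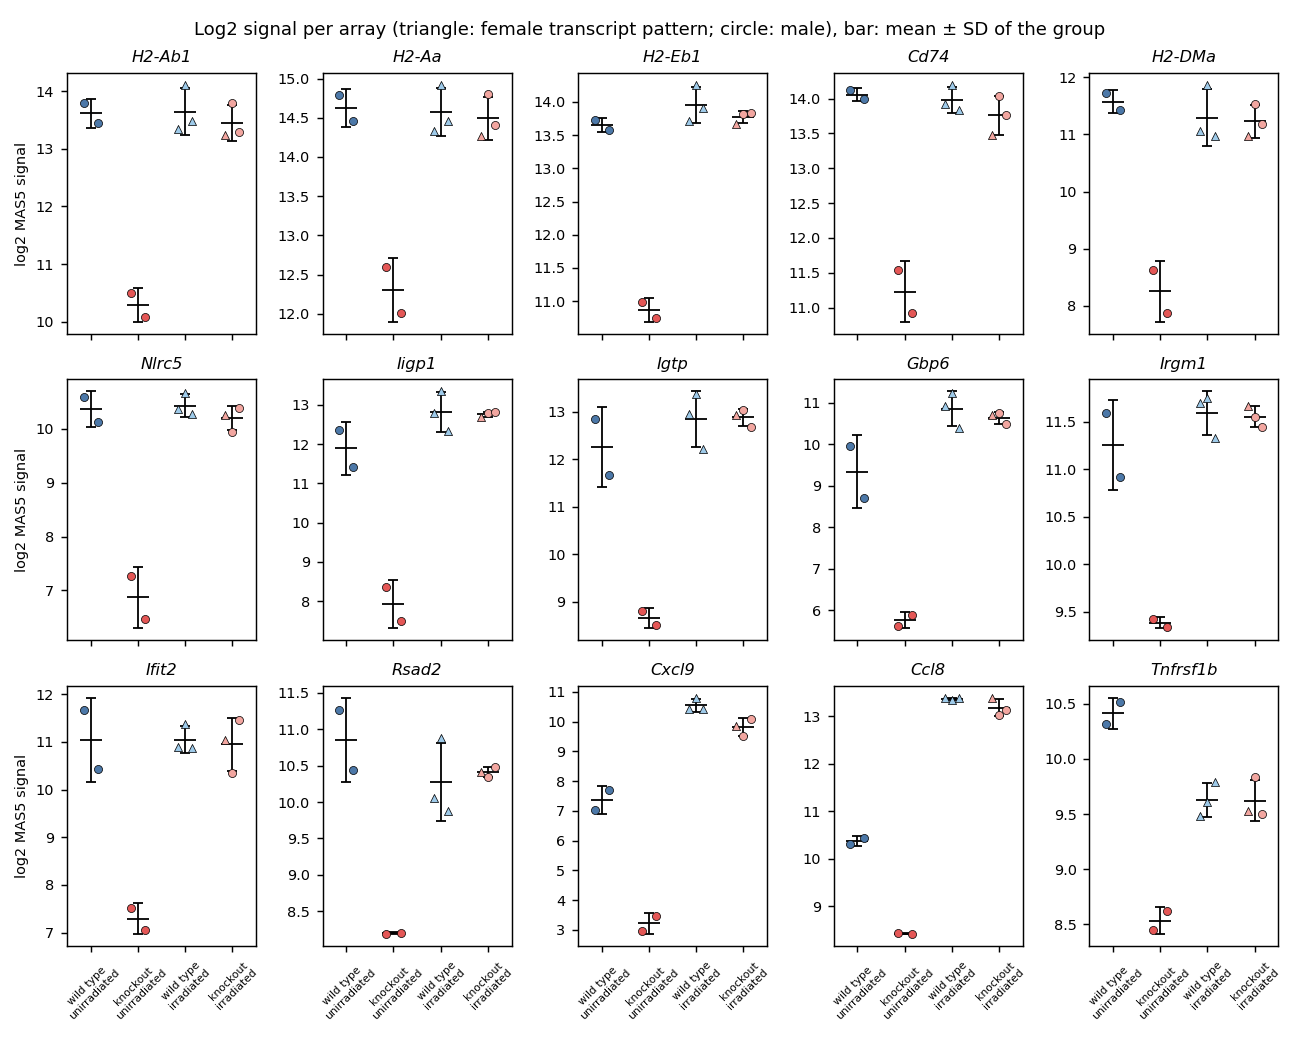
Log2 levels of 15 immune genes past the threshold, 1 point per array in the 4 groups (horizontal axis), with triangles for the 4 arrays of the female transcript pattern. In each panel the 2 unirradiated knockout arrays lie below the other 8, such as 10.99 and 10.74 for H2-Eb1 against 13.57 or more.

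Plet1, a surface protein anchored to the membrane by a lipid, had levels of 13.99 and 12.98 in unirradiated wild type, 7.16 and 5.34 in unirradiated knockout, 12.47, 13.54 and 13.78 in irradiated wild type and 12.40, 12.19 and 11.67 in irradiated knockout. The unirradiated knockout arrays were the lowest, and irradiated knockout lay below irradiated wild type with no overlap. Its difference of differences was 6.06 ± 0.78, 66.7-fold (adjusted p = 0.0169), and it ran from 5.15 without replicate 2 to 6.97 without replicate 1 of unirradiated knockout. Hal, histidine ammonia-lyase, which turns histidine into urocanate, had levels of 7.49 and 7.44 in unirradiated wild type, 1.94 and 1.78 in unirradiated knockout, 9.72, 10.16 and 9.12 in irradiated wild type and 9.12, 10.29 and 9.66 in irradiated knockout. The unirradiated knockout values are near the bottom of the scale, and irradiated genotypes overlapped, giving 5.62 ± 0.54 (adjusted p = 0.00406). A pseudocount of 16 reduced it to 3.32 (adjusted p = 0.0486) and one of 64 to 1.85 (adjusted p = 0.228), and the call was kept without any 1 array. Plet1 was lost without replicate 1 of unirradiated wild type (0.0700) or replicate 1 of irradiated knockout (0.05004), with the adjusted p in parentheses.

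Pla2g2a, the secreted phospholipase A2 that kills bacteria and whose protein is disrupted by a frameshift in C57BL/6 mice, had levels of 8.92 and 9.25 in unirradiated wild type, 6.20 and 6.65 in unirradiated knockout, 8.0, 8.14 and 8.26 in irradiated wild type and 9.01, 9.45 and 8.81 in irradiated knockout. No group overlapped another within its genotype, and the difference was -0.96 in wild type and 2.67 in knockout, opposite in sign. The difference of differences was 3.62 ± 0.34 (adjusted p = 0.00406), and it passed without any 1 array. Of the 13 genes of the epithelial antimicrobial and oxidative defence list it was the sole call (background 0.175% of genes). The list had a median of 1.42. The median was 0.16 without replicate 2 of unirradiated knockout, 0.60 and 0.76 without replicates 3 and 2 of irradiated wild type, 0.81 without replicate 1 of unirradiated wild type and between 1.27 and 2.04 without any other array. The antimicrobial lectin Reg3g differed by 6.83 ± 1.59 (adjusted p = 0.181) and the tryptophan-degrading enzyme Ido1 by 3.51 ± 0.70 (adjusted p = 0.126), both looked up after the list was seen.

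Ly6m, a member of the Ly6 family, had levels of 11.78 and 12.48 in unirradiated wild type, 9.58 and 9.42 in unirradiated knockout, 10.48, 9.73 and 10.62 in irradiated wild type and 10.67, 11.41 and 11.39 in irradiated knockout. In wild type the difference was -1.85 and in knockout 1.66, so that the difference of differences was 3.51 ± 0.45 (adjusted p = 0.0169). Clca4b, of the calcium-activated chloride channel regulator family, had levels of 14.59 and 14.19 in unirradiated wild type, 11.73 and 11.30 in unirradiated knockout, 14.10, 12.92 and 13.51 in irradiated wild type and 13.58, 14.12 and 13.58 in irradiated knockout. Unirradiated wild type was highest and unirradiated knockout lowest, with 3.12 ± 0.45 (adjusted p = 0.031). Clca4b was the 1 call of 26 colonocyte salt and water transport genes (background 0.175% of genes). Their median was -0.12, or 0.10 with arrays centred on their medians and 0.12 without replicate 3 of irradiated knockout. Mfsd2a, a transporter of lysophospholipids, had levels of 8.18 and 8.97 in unirradiated wild type, 4.67 and 5.56 in unirradiated knockout, 9.41, 8.58 and 8.49 in irradiated wild type and 8.82, 9.69 and 9.09 in irradiated knockout. It differed by 3.84 ± 0.57 (adjusted p = 0.0377), and by 2.50 (adjusted p = 0.102) with a pseudocount of 64. Aprt, which salvages adenine, had levels of 12.13 and 12.18 in unirradiated wild type, 11.40 and 11.31 in unirradiated knockout, 11.11, 11.15 and 11.13 in irradiated wild type and 11.49, 11.51 and 11.53 in irradiated knockout. It is the 1 positive gene whose unirradiated knockout arrays were not the lowest: unirradiated wild type was highest and irradiated wild type lowest, with 1.18 ± 0.15 (adjusted p = 0.0169). With the mean of its probe sets Aprt differed by 0.75 (adjusted p = 0.165). Ly6m was lost without replicate 2 of unirradiated wild type (0.0546), replicate 1 of unirradiated knockout (0.0834), replicate 2 of unirradiated knockout (0.0938) or replicate 3 of irradiated knockout (0.0539), and Aprt without replicate 1 of unirradiated knockout (0.0663), replicate 2 of unirradiated knockout (0.0884), replicate 3 of irradiated knockout (0.0539) or replicate 3 of irradiated wild type (0.0562), with the adjusted p in parentheses. Clca4b was lost in 8 and Mfsd2a in 9 of 10 fits that left out 1 array, at most at 0.176 without replicate 2 of unirradiated knockout and 0.141 without replicate 1 of unirradiated knockout.

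Car3, a carbonic anhydrase of adipocytes, muscle and liver, had levels of 6.91 and 7.02 in unirradiated wild type, 12.45 and 12.09 in unirradiated knockout, 14.55, 14.54 and 14.23 in irradiated wild type and 14.54, 13.94 and 14.78 in irradiated knockout. Here the unirradiated wild-type arrays were the low ones, far below unirradiated knockout. The difference was 7.47 in wild type and 2.15 in knockout, a difference of differences of -5.32 ± 0.33 (adjusted p = 0.000302), and Car3 passed without any 1 array. With the mean of its probe sets the value was -3.70 (adjusted p = 0.293). The adipocyte markers tested numbered 15, of which Car3 was the 1 past the threshold (background 0.0318% of genes). Of the 15, 4 were positive (45.1% of all genes) and 11 negative, with a median of -1.29. Summed, they ran from 12.88 to 13.02 in unirradiated wild type, 13.55 to 13.85 in unirradiated knockout, 15.45 to 16.17 in irradiated wild type and 14.68 to 15.92 in irradiated knockout, so unirradiated wild type was lowest. Adiponectin (Adipoq) had -4.13 ± 1.27 (adjusted p = 0.304) and was looked up after the list was seen. The adipocyte median was -0.38 without replicate 2 of irradiated knockout, -0.67 without replicate 1 of irradiated wild type, -0.80 without replicate 2 of unirradiated wild type and between -0.99 and -1.87 without any other array. Of 24 striated muscle markers tested, 0 passed the threshold, 10 were positive (45.1% of all genes) and 14 negative. Their median of -0.77 ran from -2.46 without replicate 3 to 0.48 without replicate 1 of irradiated wild type. Summed, they ran from 13.29 to 13.54 in unirradiated wild type, 14.39 to 14.75 in unirradiated knockout, 13.05 to 16.74 in irradiated wild type and 16.14 to 17.40 in irradiated knockout. The muscle protein nebulin (Neb) had the smallest p of that list, at -4.36 ± 2.11 (adjusted p = 0.519), with levels of 1.5 and 0.29 in unirradiated wild type, 8.27 and 7.26 in unirradiated knockout, 10.97, 9.57 and 4.71 in irradiated wild type and 11.33, 9.61 and 11.84 in irradiated knockout. Its unirradiated wild-type arrays were the lowest, as for Car3. The part of fat and striated muscle in the Car3 result was not tested.

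Ttr, transthyretin, which carries thyroid hormone and retinol-binding protein, had levels of 11.24 and 11.48 in unirradiated wild type, 12.60 and 12.64 in unirradiated knockout, 11.54, 11.44 and 11.69 in irradiated wild type and 11.22, 11.14 and 11.45 in irradiated knockout. Both unirradiated knockout arrays were above the other 8, with -1.55 ± 0.20 (adjusted p = 0.0172). Pdcd4, an inhibitor of translation initiation, had levels of 11.70 and 11.41 in unirradiated wild type, 12.80 and 12.54 in unirradiated knockout, 11.56, 11.65 and 11.61 in irradiated wild type and 11.29, 11.49 and 11.30 in irradiated knockout. The same layout gave -1.36 ± 0.20 (adjusted p = 0.031). Slc35e3, of the nucleotide sugar transporter family, had levels of 8.34 and 8.06 in unirradiated wild type, 9.63 and 9.64 in unirradiated knockout, 8.79, 8.88 and 8.82 in irradiated wild type and 8.97, 8.78 and 8.94 in irradiated knockout. Its difference of -1.37 ± 0.22 (adjusted p = 0.0465) was lost in each of the 10 fits that left out 1 array, at most at 0.183 without replicate 2 of unirradiated knockout. Pdcd4 was lost in 8 of them, at most at 0.141 without replicate 1 of unirradiated knockout, and Ttr without replicate 1 of unirradiated wild type (0.0632), replicate 1 of unirradiated knockout (0.0877), replicate 2 of unirradiated knockout (0.0938) or replicate 1 of irradiated knockout (0.0565). Centring each array on its own median, which moves the median of all genes from -0.05 to 0.16, left Car3 as the 1 negative call among 28 positive ones.

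**Figure D3:**
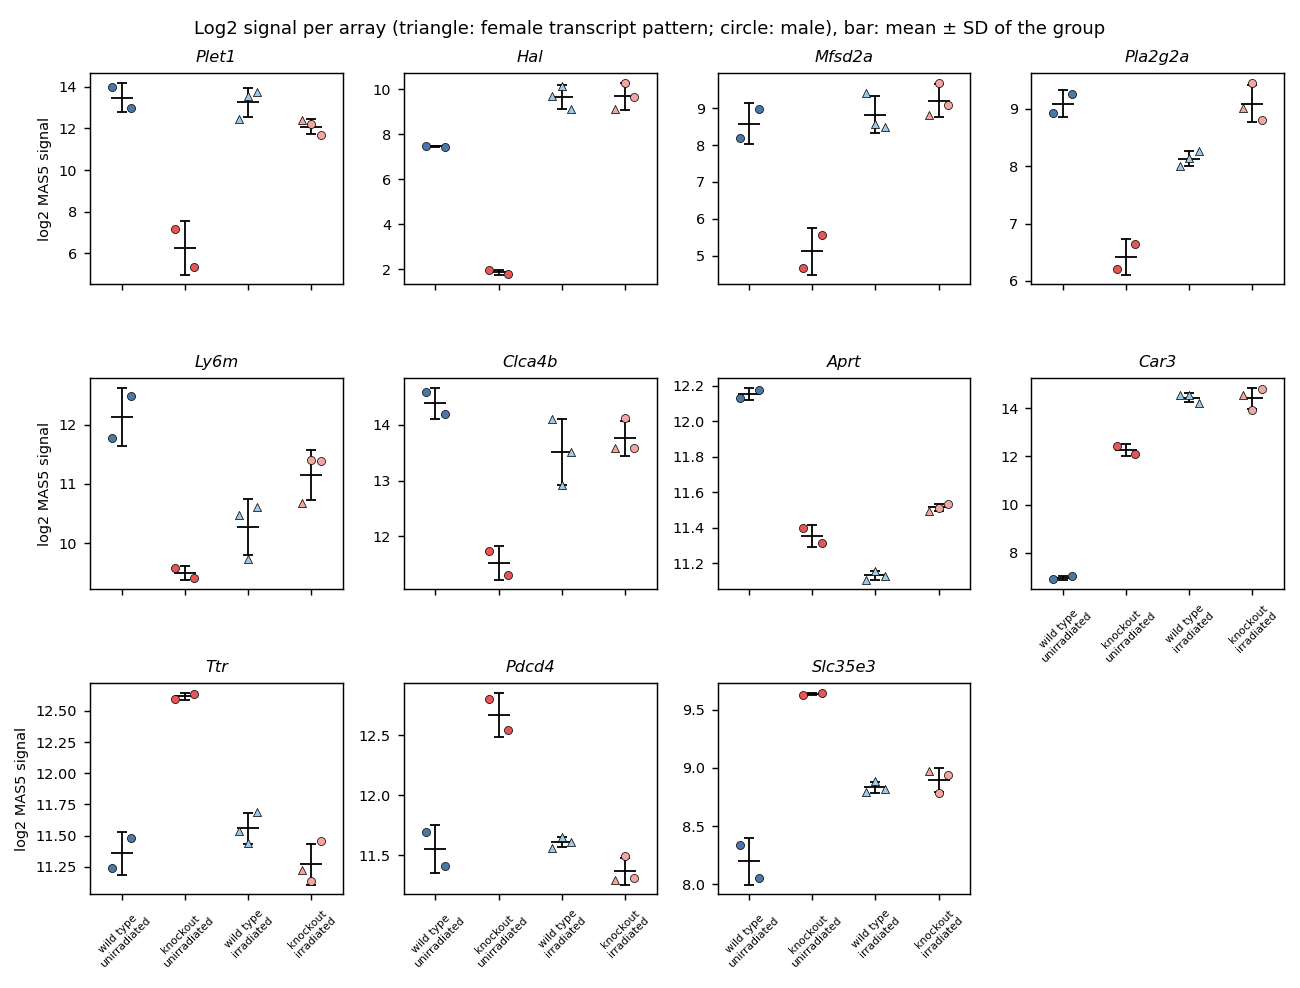
Log2 levels of the other 11 genes past the threshold, 1 point per array in the 4 groups, with triangles for the female transcript pattern. Car3 is low in unirradiated wild type (6.91 and 7.02), and Ttr, Pdcd4 and Slc35e3 are highest in unirradiated knockout.

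Across the 26 genes the genotypes differed without irradiation more than after it. The absolute genotype difference had a median of 2.85 (range 0.80 to 7.24) without irradiation and 0.20 (0.01 to 1.18) after it, and it was larger without irradiation in all 26 (68.3% of all genes tested). Unirradiated genotypes overlapped in 0 of 26 (52.3% of all), irradiated genotypes in 20 of 26 (91.6%). Wild-type arrays overlapped between conditions in 15 of 26 (46.4% of all) and knockout arrays in 0 of 26 (46.1%). In 21 of 22 positive genes the unirradiated knockout arrays were below the other 8 (8.12% of all genes), and in 3 of 4 negative genes above them (10.3%). The unirradiated wild-type arrays were above the other 8 in 4 positive genes (5.64% of all) and below them in 2 negative genes (10.4%). The irradiated minus unirradiated difference in wild type was within 1 log2 unit in 19 of 26, and in 10103 of all 12568 genes tested. A small difference in wild type is therefore not particular to these genes. These layouts follow in part from the test that chose the genes. All 4 unirradiated arrays carry the male pattern, so the sex pattern does not separate the unirradiated genotypes. After irradiation all 3 wild-type arrays but only replicate 1 of knockout carry the female pattern. The part of sex in these layouts was not tested.

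A gene's second brightest probe set was not used in the test. Of the 26 genes, 12 had one, and in 12 of 12 (100%) it gave the same sign, passing the filter or not, against 5035 of 7512 genes (67%) overall. The second probe set gave a larger difference than the tested one for Plet1 (7.54), Iigp1 (4.03), H2-Ab1 (3.95), H2-DMa (3.59), H2-Aa (3.07) and Ttr (-1.61). The difference was smaller for Car3 (-3.38), Rsad2 (2.26), Cxcl9 (2.16), Gbp6 (1.64), Tnfrsf1b (0.73) and Aprt (0.33). These probe sets read the same RNA on the same arrays. The 26 genes were also chosen for their differences on these arrays, so a share above that of all genes follows in part from the choice.

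Outside these groups, 38 of 47 lists had no member past the threshold (background 0.207% of genes in either direction), with medians from -0.77 to 1.86. With so low a background, a count of 0 in lists of these sizes does not show that the genotypes responded alike. The PDGF family had 0 of 6, all negative (45.1% of all genes were positive), with a median of -0.41. Pdgfd differed by -1.11 ± 0.57 (adjusted p = 0.549) and the receptor Pdgfra by -0.01 ± 0.41 (adjusted p = 0.995). Extracellular matrix genes had 0 of 41 and a median of -0.28, and the TGF-beta pathway 0 of 24 and -0.21, which was 0.01 with arrays centred on their medians. The PDGF family median was -0.24 without replicate 2 of irradiated knockout. Without replicates 1 and 2 of unirradiated wild type in turn, the median was -0.15 and -0.44 for extracellular matrix and -0.07 and -0.41 for the TGF-beta pathway. The genes next to Pdgfc on its chromosome had 0 of 6 and a median of -0.10, which turned to 0.11 with that centring and 0.02 with quantile normalization, and Gucy1b1 among them had -0.34 ± 0.27 (adjusted p = 0.702). Cornified envelope genes, which build the skin barrier, had 0 of 40 past the threshold, 32 positive (45.1% of all genes) and a median of 1.86. In the cornified envelope and squamous differentiation list that median was 0.62 without replicate 3 and 2.71 without replicate 1 of irradiated wild type. Their smallest p was that of Sfn, a keratinocyte 14-3-3 protein, at 1.75 ± 0.36 (adjusted p = 0.135). Smooth muscle markers had 0 of 15, with values from -0.14 to 0.23, the narrowest range of the lists with at least 10 genes. Among T and NK cell markers the granule protease Gzmb had 2.96 ± 0.64 (adjusted p = 0.159).

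**Figure D4:**
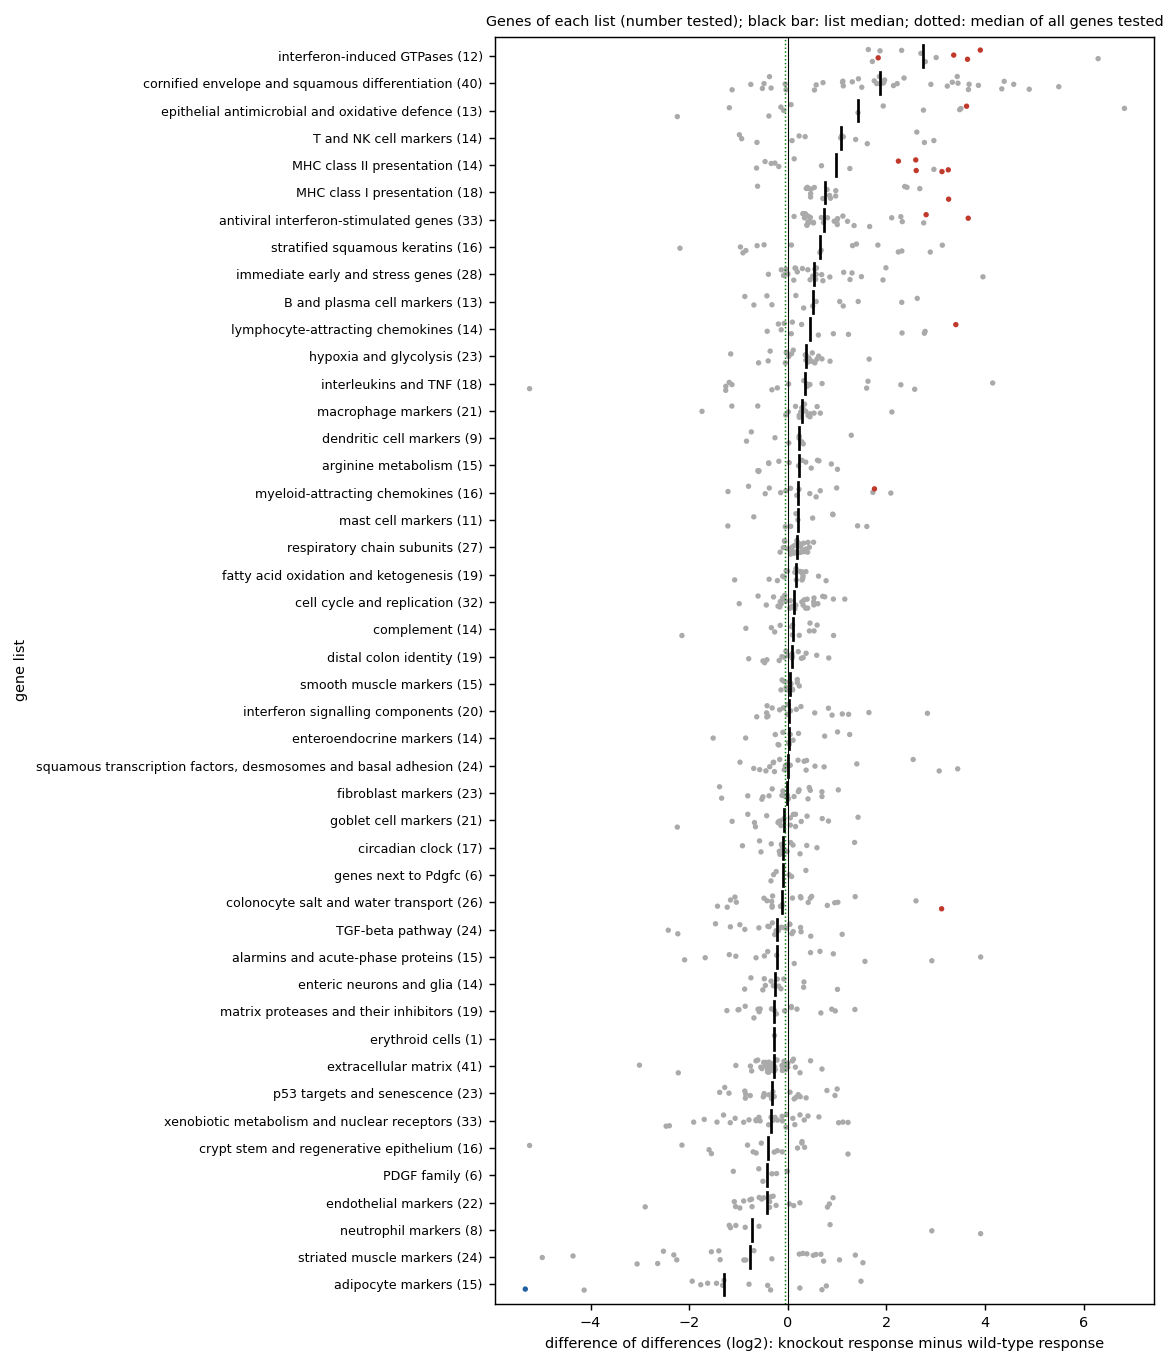
Difference of differences (log2) for the tested genes of each list (points) and the list median (bar), with genes past the threshold in red (higher) or blue (lower) and the sex-linked list left out. The interferon-induced GTPases lie on the positive side, with a median of 2.74, and smooth muscle markers stay close to 0.

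How far single arrays carry the calls varied by gene. The count of genes past the threshold was 19 and 35 without replicate 1 or 2 of unirradiated wild type, 14 without either unirradiated knockout array, 23, 22 and 22 without replicates 1, 2 and 3 of irradiated wild type, and 16, 20 and 15 without those of irradiated knockout. Of the 26 genes, 7 passed in all 10 such fits (Hal, Pla2g2a, Cxcl9, Nlrc5, H2-Eb1, Ccl8 and Car3), 9 in 6 to 9 of them and 10 in 5 or fewer. All 26 kept their direction in each fit. They were chosen for their differences on these same arrays, so a kept direction, here and below, follows in part from that. Quantile normalization ended the calls of Ifit2, Irgm1, Mfsd2a, Rsad2 and Slc35e3, and centring on array medians those of Irgm1, Pdcd4, Slc35e3 and Ttr. Without the trend of the variance with the mean, 10 of the 26 passed: Car3, Ccl8, Cd74, Cxcl9, H2-Ab1, H2-Eb1, Hal, Nlrc5, Pla2g2a and Tnfrsf1b. The Gapdh difference as a covariate ended the calls of Clca4b, H2-Aa, H2-DMa, Ifit2, Mfsd2a, Rsad2 and Slc35e3. With the sex pattern as a covariate the count was 4 (Car3, Ccl8, H2-Eb1 and Hal), the direction held in 26 of 26, and 86.2% to 111% of each difference remained. That fit takes the irradiated genotypes from the female-pattern arrays, so its value rests on 1 irradiated knockout array. That array lay a median of 0.15, and at most 0.86, from the mean of the other 2 irradiated knockout arrays over the 26 genes.

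**Figure D5:**
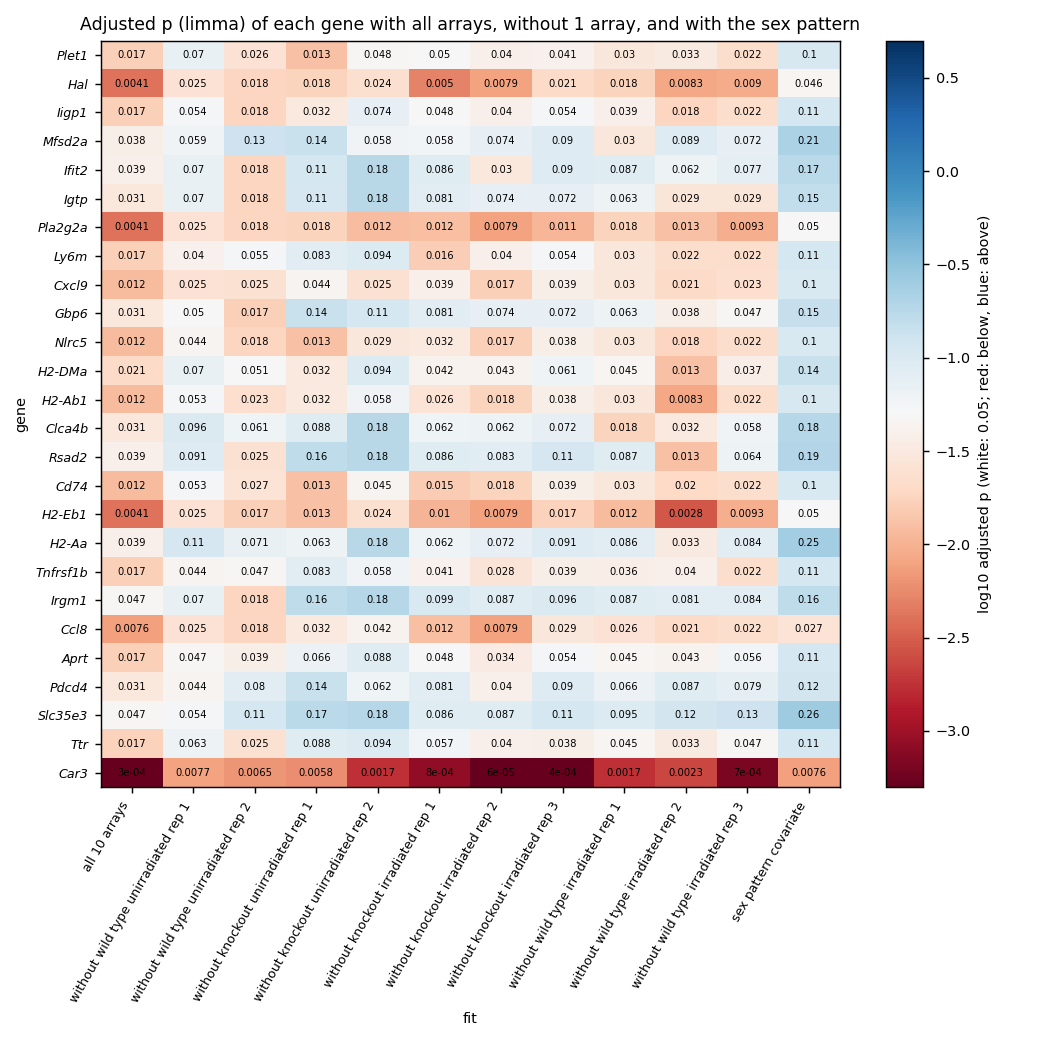
Adjusted p of the 26 genes (rows) in the fit of all arrays, in the 10 fits that leave out 1 array and in the fit with a sex pattern term (columns). The 7 genes that pass in every leave-out fit include H2-Eb1 and Car3, and Slc35e3 passes in 0 of them.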

How the data were processed

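Each of 10 Affymetrix arrays measured total RNA of 1 colorectal sample. Genotype and irradiation in the labels set the groups. The deposited values are log2 signals, made by the authors with MAS5, per the submitters' processing notes (version unstated). Raised to linear scale and trimmed by 2% at each tail, every array averaged 500. MAS5 values of dim probe sets scatter widely, and no detection calls entered. Precision is limited by how few arrays there are.

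The 45101 probe sets comprised 34945 with 1 platform gene, 932 with several, 9160 with none and 64 controls. A RefSeq table of GRCm38.p6 updated 34741 symbols and gave neighbouring genes, and promoter sequences come from RefSeq in that build. The probe set brightest by mean stood for its gene (18193 genes). Genes were tested where their value exceeded the array median on 2 or more arrays. limma 3.58.1 (R 4.3.3) fitted 1 mean per group with 6 residual degrees of freedom, a mean-dependent variance prior, and p-values adjusted by Benjamini-Hochberg over all 12568 genes with a threshold of 0.05. Tables and figures used Python 3.11.15 and pandas 2.3.3. Irradiation differences within a genotype are values without a test. The fit was checked on simulated data. P-values measure the spread between these samples.

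The comparison, gene lists and naming rule were chosen with earlier results of these data known. Named were Pdgfc; per direction, the 12 largest differences past the threshold and the 8 smallest p among such genes above the array median on all arrays; where under 3 passed, the 3 smallest p; and from each list at most 4 genes that passed, else the gene of smallest p. Alternatives were quantile and median scaling, pseudocounts of 16 and 64, other filters, variance models and probe set rules, a minimum of 1 log2 unit, covariates for sex pattern and Gapdh, the replicate number as a block, and leaving out each array. Where this left a group with 1 array, its spread was taken to equal that of the rest. As a further alternative, added after seeing the data, the second probe sets were limited to those past the filter.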

Additional observations from a re-analysis of the deposited data

Results flagged for a closer look

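All of the following genes are listed because they passed limma's test of the difference of differences, in log2 units, knockout minus wild type. No explanation was tested for any of them.

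For genes of immunity the values were 3.90 for Iigp1, 3.64 for Igtp, 3.36 for Gbp6 and 1.83 for Irgm1 among the GTPases. They were 3.66 for Ifit2 and 2.80 for Rsad2, and 3.26 for the regulator Nlrc5. In the class II pathway they were 3.25 for H2-DMa, 3.13 for H2-Ab1, 2.60 for Cd74 and 2.59 for H2-Eb1. Cxcl9 had 3.41, Ccl8 1.76 and Tnfrsf1b 1.88.

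For the other positive genes the values were 6.06 for Plet1, 5.62 for Hal, 3.84 for Mfsd2a, 3.62 for Pla2g2a, 3.51 for Ly6m, 3.12 for Clca4b and 1.18 for Aprt. The negative values were -1.36 for Pdcd4, -1.37 for Slc35e3, -1.55 for Ttr and -5.32 for Car3.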

How the results depend on the processing

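All 26 genes kept their direction under every alternative that tested them, which follows in part from their choice on these same arrays. In 440 of 695 values they also stayed past the threshold. The count of genes past it was 16 with a pseudocount of 64, 10 without the variance trend, 42 with every probe set tested by itself, 3 with a minimum of 1 log2 unit, 4 with the sex pattern as a covariate and 10 with the female-pattern irradiated knockout array alone. It lay between 19 and 29 under quantile or median scaling, a pseudocount of 16, other filters, a robust prior, array weights, the mean of probe sets and the Gapdh covariate. Median scaling gave 96.6% positive calls against 84.6%. Leaving out 1 array gave between 14 and 35 calls. With the replicate number as a block the count was 3. Pairs of arrays from different groups were also correlated on each gene's deviation from its group mean, not on the levels themselves. For 13 same-numbered pairs this correlation ran from -0.20 to 0.16, with 3 over 0.1. In groups of 2 arrays the deviations mirror each other. By the same measure, replicate 2 of irradiated knockout and replicate 3 of irradiated wild type, of different numbers, correlated at 0.24. Whether the numbers pair the samples is not known here.

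Of uncalled named genes, Des reversed to -0.073 with the mean of probe sets, and Hba-a2 to 0.066 with the Gapdh covariate and to 0.20 without replicate 1 of unirradiated wild type (leaving out 1 array gave -0.75 to 0.20). Of 1007 alternative values of the 38 uncalled named genes, 10 passed. The cause of these changes was not tested. Unirradiated groups of 2 arrays, dim genes under MAS5 and the coincidence of sex pattern with irradiation in wild type limit every value, and of the second probe sets, those past the filter (11 of 12) matched in sign in 100%.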

Other observations

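Cytokine-related genes outside the groups described included wide differences that missed the threshold. Il18bp, the soluble inhibitor of interleukin 18 and an interferon-γ target, had a difference of differences of 4.15 ± 0.89 (limma adjusted p = 0.157), with irradiated minus unirradiated differences of -0.39 in wild type and 3.76 in knockout. Il33, an alarmin of stromal and epithelial cells, had -5.24 ± 1.61 (adjusted p = 0.303), with 6.86 in wild type and 1.62 in knockout. Their unirradiated arrays were far apart, with Il33 at 1.10 and 6.21 in wild type and Il18bp at 6.79 and 4.15 in knockout. With the unirradiated wild-type array of 1.10 left out Il33 had -2.68 (adjusted p = 0.201), and with that of 6.21 left out -7.79 (adjusted p = 0.0167). With the unirradiated knockout array of 4.15 left out Il18bp had 2.83 (adjusted p = 0.177), and with that of 6.79 left out 5.48 (adjusted p = 0.013).

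Immediate early and stress genes had 0 of 28 members past the threshold (background 0.207% of genes) and 23 positive (45.1% of all genes). Their median was 0.53 against -0.05 for all genes, and Fos had 1.49 ± 0.35 (limma adjusted p = 0.189). The cell cycle inhibitor Cdkn1a, a p53 target, had 1.00 ± 0.19 (adjusted p = 0.11), with -1.55 in wild type and -0.55 in knockout.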
